A study of Mus musculus with 1152 samples.

Results

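The 8 genes described here carry, store or release iron: the ferritin subunits Fth1 and Ftl1, the exporter Slc40a1 (ferroportin), the metal transporters Slc11a1 and Slc11a2, transferrin (Trf), the transferrin receptor (Tfrc) and the haem-degrading enzyme Hmox1. They were picked by name from the 48587 genes of the count table, with earlier results of these data known. All 8 were among the 17358 genes that passed the filter on low counts. Their reads were counted in single microglia, the macrophages of the brain tissue, sorted into wells by surface stains (CD11b, CD45, Ly6C, Ly6G and CD206) and sequenced with Smart-seq2, which covers whole transcripts and has no molecular identifiers. Wild-type (WT) C57BL/6J mice and 5xFAD mice, labelled with the same strain, were compared. 5xFAD is a transgenic line in which the neuronal Thy1 promoter drives human amyloid precursor protein and presenilin carrying familial Alzheimer mutations, and which forms amyloid plaques. The sources used here give no ages, and the replicate number was taken to name the mouse within a genotype. Cortex, hippocampus and cerebellum of 4 WT mice gave 167, 182 and 162 cells. The cortex of 4 5xFAD mice gave 183 cells, and the hippocampus and cerebellum of 3 gave 154 and 193. A value is the level in the summed cells of 1 mouse and region, and the mouse is the replicate. Levels are in CPM (reads of the gene per 1000000 gene reads), with the library size of each sum scaled by TMM normalization. Levels of single cells, of cells split by activation genes and of wells with markers of other cell types are plain CPM without this scaling.

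The sums held 35 to 72 cells and 5696201 to 26669220 reads. All 10 microglia markers had reads in each group, with a summed level of 52500 to 78900 CPM. Haemoglobin and other red blood cell markers summed to at most 6.62 CPM in any mouse. Wells with 3 or more markers of 1 other cell type numbered 44 of 1041, and 28 of these carried markers of border macrophages (meningeal and perivascular macrophages), 26 of them from cerebellum. The genotypes lay on different plates in every region (WT cortex and WT hippocampus on 1, WT cerebellum and 5xFAD cortex on another, 5xFAD hippocampus and 5xFAD cerebellum on the last), so the effects of plate and of genotype cannot be told apart here, and no plate gives a within-plate genotype value.

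Iron enters a cell mainly as transferrin bound to its receptor; Slc11a2 moves it out of the endosome, ferritin stores it, and Slc40a1 is the exporter that lets it leave. Macrophages also recover iron from engulfed material, through Slc11a1 in the phagosome membrane and through Hmox1, which opens the haem ring. Several of these messages carry an iron-responsive element, a small hairpin bound by iron regulatory proteins when iron is scarce: in the 5′ UTR it blocks translation, and in the 3′ UTR it protects the message from decay. Message levels therefore need not follow protein levels for these genes, and protein was not measured here.

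The elements found by a strict pattern are shown because they are the sites of this control in 4 of the members. A search of the GENCODE transcripts (GRCm38) for an unpaired C, a stem of 5 bases, the loop CAGTGN and 5 bases that pair with the stem (G-T pairs allowed, transcript strand only) found 1 element in the 5′ UTR of Fth1, Ftl1 and Slc40a1 and 4 in the 3′ UTR of Tfrc. The 29-base stretches follow, 5′ to 3′ on the transcript strand, with the loop in capitals.
Fth1 5′ UTR, chr19:9982732-9982760, plus strand: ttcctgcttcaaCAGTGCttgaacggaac
Ftl1 5′ UTR, chr7:45459779-45459807, minus strand: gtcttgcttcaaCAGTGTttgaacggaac
Slc40a1 5′ UTR, chr1:45925465-45925493, minus strand: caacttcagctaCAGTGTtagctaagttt
Tfrc 3′ UTR, chr16:32631219-32631247, plus strand: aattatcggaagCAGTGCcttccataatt
Tfrc 3′ UTR, chr16:32631598-32631626, plus strand: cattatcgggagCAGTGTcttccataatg
Tfrc 3′ UTR, chr16:32631663-32631691, plus strand: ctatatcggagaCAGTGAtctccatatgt
Tfrc 3′ UTR, chr16:32631710-32631738, plus strand: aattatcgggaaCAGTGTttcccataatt
The same pattern matched 31 of 20899 genes with an annotated 5′ UTR (0.148%) and 129 of 21028 with a 3′ UTR (0.613%). It was not found in Hmox1, Trf, Slc11a1 or Slc11a2, which says only that these letters are not in their annotated UTRs. As background, a transcript form of Slc11a2 is known to carry an element in its 3′ UTR.

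Per kilobase of exon, the ferritin heavy chain gene Fth1 (chr19:9980598-9985098) had the highest level of the 8 in every group, with group means of 277 to 662 CPM per kilobase. Slc11a1 (chr1:74375195-74386062, 112 to 248), Trf (chr9:103204001-103230444, 90.1 to 161) and the ferritin light chain gene Ftl1 (chr7:45457944-45459884, 71.8 to 161) came next on this scale. Slc40a1 (chr1:45908068-45926523) had 15.7 to 50.7 and Hmox1 (chr8:75093621-75100589) 15.6 to 44.1 CPM per kilobase. Slc11a2 (chr15:100387898-100425072, 4.36 to 12.5) and Tfrc (chr16:32608920-32632794, 0.718 to 5.11) were lowest in all groups. The positions are those of the whole genes in GRCm38. Fth1 took 89.8% to 91.5% of the ferritin reads in the group means, so the share of heavy chain reads was close to constant while their number was not. The table also lists 14 ferritin pseudogenes or copies, which together held 458 reads, 0.108% of those of Fth1 and Ftl1. The sources used here do not say how reads that fit several copies were counted.

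Whether amyloid pathology goes with a change in these genes was asked by comparing 5xFAD with WT in each region. In hippocampus, the storage genes Fth1 and Ftl1, the phagosomal transporter Slc11a1 and transferrin were higher in 5xFAD, and the exporter Slc40a1 was lower. In total 5 of the 8 members passed an adjusted p of 0.05 (edgeR quasi-likelihood test over all genes), 4 higher and 1 lower, where 1.01% of the 17358 genes passed. The median log2 fold change of the 8 members was 1.11, against 0.10 over all genes tested. The members were chosen with earlier results of these data known, so these comparisons with all genes are not independent of that choice. Microglia markers moved too: P2ry12, Tmem119, Selplg and Cx3cr1 passed as lower and Trem2 as higher, and the sum of all 10 was 61900 to 65100 CPM in 5xFAD hippocampus against 70400 to 78900 CPM in WT hippocampus. Of the neutrophil markers Csf3r, which microglia also express, passed as higher, and their sum was 779 to 929 against 401 to 556 CPM. The part of either in the members' differences was not tested. In cortex the members pointed the same way with 0 of 8 past the threshold, and in cerebellum 0 of 8 passed as well.

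**Figure D1:**
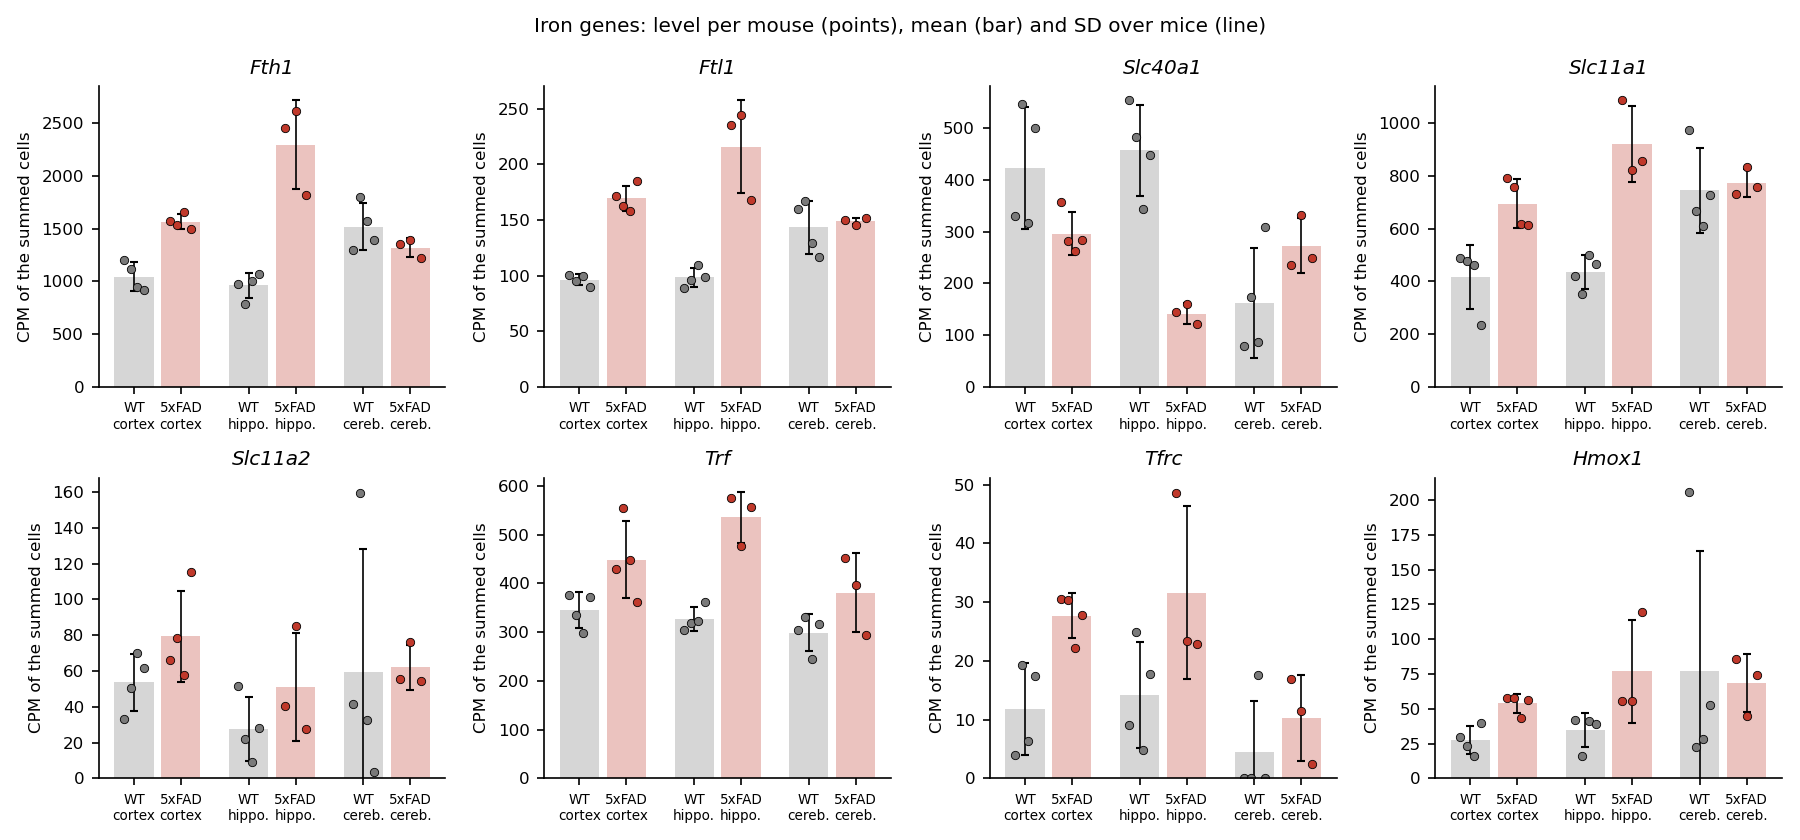
Level of each of the 8 genes in CPM (y axis, linear, from 0) in the summed cells of each mouse, by genotype and region; points are mice, bars the group mean and lines the SD over mice. The 3 5xFAD hippocampus mice lie above all 4 WT hippocampus mice for Fth1 and Ftl1 and below them for Slc40a1.

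Fth1 encodes the heavy chain, the subunit that oxidises iron for storage. Its level in the 4 WT hippocampus mice was 974, 789, 1007 and 1074 CPM, and in the 3 5xFAD hippocampus mice 2459, 2612 and 1818 CPM. The lowest 5xFAD mouse was well above the highest WT mouse. This was a 2.39-fold higher level (log2 fold change 1.26 ± 0.14 SE, adjusted p = 1.17e-05). It passed without any single sum and at equal depth per cell, but not when log levels were averaged over cells instead of summed (0.87, adjusted p = 0.196).

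In cortex the Fth1 levels were 1200, 1119, 946 and 917 CPM in WT and 1571, 1538, 1661 and 1499 CPM in 5xFAD, again without overlap. The log2 fold change of 0.58 ± 0.13 had an adjusted p of 0.0544. It lay close to the threshold: leaving out the wells with markers of other cell types gave 0.63 with an adjusted p of 0.0103, and the adjusted p ran from 0.00104 to 0.287 over 12 other ways of processing. In cerebellum WT already had 1296, 1801, 1575 and 1394 CPM, and 5xFAD had 1350, 1390 and 1222 CPM. These groups overlapped (log2 fold change -0.20 ± 0.14, adjusted p = 0.731).

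Ftl1 encodes the light chain, which helps iron mineralise inside the ferritin shell. Its hippocampal level was 89.2, 96.2, 109 and 99.0 CPM in WT and 235, 244 and 168 CPM in 5xFAD, a 2.19-fold difference with no overlap (log2 1.13 ± 0.19, adjusted p = 0.00174). The call was lost without a filter on low counts (adjusted p = 0.138) and in the averages of log levels over cells (0.46, adjusted p = 0.706). In cortex the WT mice had 101, 95.4, 99.4 and 89.5 CPM and the 5xFAD mice 171, 163, 158 and 185 CPM, also apart, with a log2 fold change of 0.81 ± 0.18 and an adjusted p of 0.0526. In cerebellum WT had 117 to 167 CPM and 5xFAD 146 to 152 CPM, which overlapped (0.06 ± 0.19, adjusted p = 0.999).

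Slc40a1 encodes ferroportin, and it was the 1 member that was lower in 5xFAD hippocampus. WT hippocampus had 554, 482, 343 and 449 CPM, and 5xFAD hippocampus 145, 160 and 121 CPM. Every 5xFAD mouse was below every WT mouse, a 3.22-fold lower level (log2 fold change -1.69 ± 0.35, adjusted p = 0.0154). It passed under all 12 other ways of processing (-3.05 to -1.41, adjusted p at most 0.0343). It did not pass with 2 5xFAD hippocampus mice: without mouse 1, 2 or 3 the adjusted p was 0.0782, 0.0640 and 0.108, at -1.70, -1.77 and -1.59.

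Outside hippocampus no genotype difference in Slc40a1 passed. Cortex had 330, 547, 316 and 500 CPM in WT and 357, 282, 262 and 283 CPM in 5xFAD, with 1 5xFAD mouse inside the WT range (-0.52 ± 0.31, adjusted p = 0.550). Cerebellum had 79.7, 173, 86.3 and 309 CPM in WT and 235, 333 and 249 CPM in 5xFAD, with a difference of the opposite sign (0.75 ± 0.33, adjusted p = 0.552).

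Slc11a1 encodes NRAMP1, a metal pump of the phagosome that limits the iron available to engulfed microbes. In hippocampus it stood at 421, 351, 498 and 466 CPM in WT and at 1086, 821 and 854 CPM in 5xFAD, a 2.12-fold difference without overlap (log2 1.08 ± 0.21, adjusted p = 0.00718). Without 5xFAD mouse 1 the adjusted p was 0.0698, at 0.95. In cortex the values were 488, 478, 462 and 234 CPM in WT and 790, 758, 618 and 613 CPM in 5xFAD, which did not overlap but did not pass (0.74 ± 0.20, adjusted p = 0.155). The cortical difference passed in averages of log levels over cells (2.61, adjusted p = 6.232e-05), with no filter on low counts (adjusted p = 0.00614) and with columns as deposited (0.0406). In cerebellum both genotypes were high, with 611 to 973 CPM in WT and 730 to 833 CPM in 5xFAD (0.06 ± 0.21, adjusted p = 1.00).

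Its relative Slc11a2 encodes DMT1, which moves iron from the endosome to the cytosol. It ranged from 9.16 to 51.7 CPM over WT hippocampus mice and from 27.5 to 85.3 CPM over 5xFAD hippocampus mice, and the genotypes overlapped in all 3 regions. The log2 fold changes of 0.57 ± 0.68, 0.88 ± 0.72 and 0.07 ± 0.73 in cortex, hippocampus and cerebellum had adjusted p-values of 0.871, 0.696 and 1.00.

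Transferrin, the iron carrier of plasma and of oligodendrocytes, was read in nearly all microglia. WT hippocampus had 304, 319, 323 and 362 CPM of Trf and 5xFAD hippocampus 575, 477 and 556 CPM, a 1.64-fold difference without overlap (log2 0.71 ± 0.17, adjusted p = 0.0423). This call was the least stable of the 5. It was lost without any 1 of the 7 hippocampus mice, without WT cerebellum mouse 4, 5xFAD cortex mouse 1 or 3, or 5xFAD cerebellum mouse 2 (adjusted p of 0.050 to 0.225, with values of 0.66 to 0.80 over all sums left out), and under 5 of 12 other ways of processing. In averages of log levels over cells the Trf value was 0.029 (adjusted p = 1). The other 4 were no filter on low counts (adjusted p = 0.209), only the groups compared (0.0593), plate columns 1 and 2 left out (0.107) and columns as deposited (0.192). Oligodendrocyte markers summed to 95.5 to 201 CPM in WT hippocampus and 130 to 282 CPM in 5xFAD hippocampus, with 1 of 9 markers at 0 in the latter and 3 of 9 in the former. With all 44 wells that carried markers of any other cell type left out, of which 3 were oligodendrocyte-marked and 1 of those was from hippocampus, the Trf difference was 0.72 with an adjusted p of 0.0248. In cortex (0.38 ± 0.16, adjusted p = 0.392) and cerebellum (0.35 ± 0.17, adjusted p = 0.556) the Trf levels overlapped between genotypes.

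Tfrc, the receptor through which transferrin-bound iron is taken up, was sparse. WT cortex mice had 3.96 to 19.4 CPM and 5xFAD cortex mice 22.3 to 30.5 CPM, without overlap but with a wide error (log2 1.23 ± 1.26, adjusted p = 0.824). Hippocampus (1.16 ± 1.33, adjusted p = 0.831) and cerebellum (1.21 ± 1.33, adjusted p = 0.904) overlapped. In WT cerebellum 2 of 4 mice had 0 reads, 1 had 0.1003 CPM and mouse 3 had 17.7 CPM. Without mouse 3 the cerebellar difference was 7.83 on the log2 scale with an adjusted p of 0.0313, a value set against 3 mice at or near 0.

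Hmox1, the inducible haem oxygenase, frees iron from haem and is a target of the oxidative stress factor Nrf2. It had 16.1 to 41.6 CPM in WT hippocampus and 55.9, 55.2 and 120 CPM in 5xFAD hippocampus, without overlap (log2 1.15 ± 0.58, adjusted p = 0.392). In cortex it had 16.3 to 39.7 CPM in WT and 43.5 to 58.0 CPM in 5xFAD, also apart (0.98 ± 0.54, adjusted p = 0.496). Neither difference passed. In cerebellum the groups overlapped (-0.17 ± 0.58, adjusted p = 0.999), and mouse 1 of WT held 206 CPM against 22.6 to 52.4 CPM in the others. A single cell held 96.0% of the Hmox1 reads of that mouse, and without its sum the difference was 0.99 (adjusted p = 0.622). Red blood cell markers were at 0 for 6 of 7 genes in both hippocampus groups.

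The counts by region can be set against the background of each test. In cortex 0.294% of all genes passed and 0 of 8 members did. An unadjusted edgeR p below 0.05 was found for 4 of 8 members and for 2039 of 17358 genes. DESeq2 passed 2 members, where it passed 550 of 38310 genes, and limma voom passed 0 members. The median log2 fold change of the members was 0.66 in cortex, against -0.09 over all genes. In cerebellum 0.0461% of all genes passed and 0 of 8 members did, with a median of 0.06 against -0.01. An unadjusted edgeR p below 0.05 was found for 1 of 8 members and for 1549 of 17358 genes. DESeq2 and limma voom passed 0 members.

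**Figure D2:**
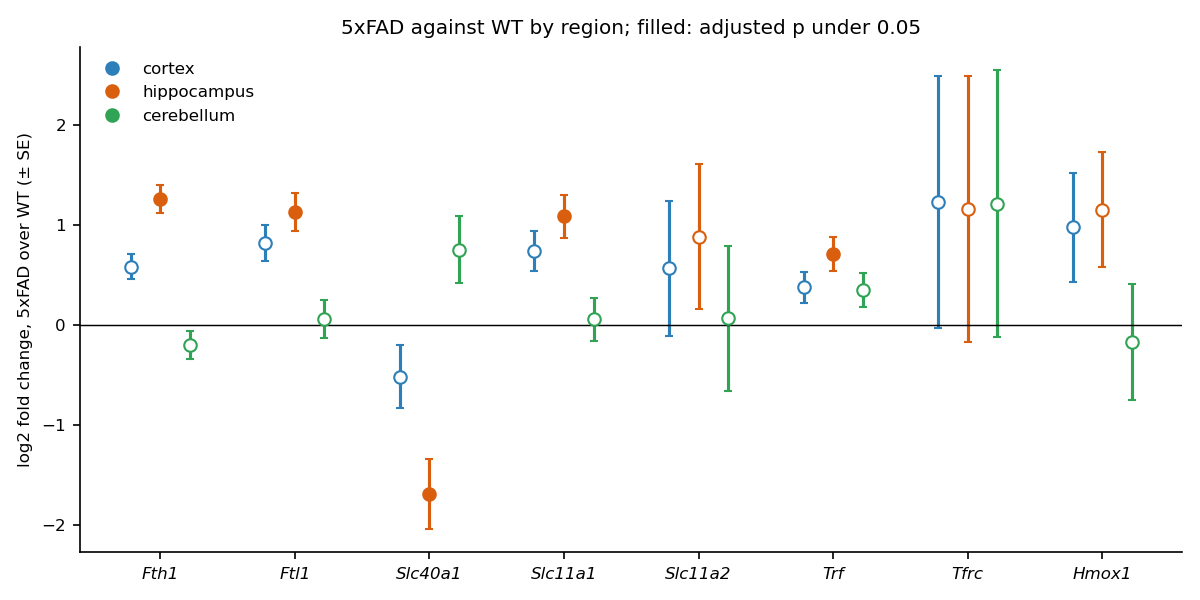
Log2 fold change of 5xFAD over WT (y axis, with its SE) for each gene in cortex, hippocampus and cerebellum; filled points have an adjusted p under 0.05. The 5 filled points are all in hippocampus, with Slc40a1 at -1.69 and Fth1 at 1.26.

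Whether the genotype difference itself differed between regions was tested with interaction terms. The genotype effects on Fth1 and Slc40a1 differed between hippocampus and cerebellum in opposite directions. WT hippocampus and WT cerebellum lay on different plates, and the 5xFAD groups of these regions on the same plate. Plate therefore enters this contrast and cannot be told apart from it. The genotype effect on Fth1 was higher in hippocampus than in cerebellum by 1.46 ± 0.20 on the log2 scale (adjusted p = 0.000604). For Slc40a1 the difference of the effects was -2.44 ± 0.48 (adjusted p = 0.0290). These 2 of 8 members compare with 0.3% of all genes. The Fth1 term passed without any single sum, but not in averages of log levels over cells (0.66, adjusted p = 0.686). The Slc40a1 term was lost without 5xFAD cerebellum mouse 2 or 3, 5xFAD hippocampus mouse 1, 2 or 3, WT cerebellum mouse 2, or WT hippocampus mouse 1 or 2 (adjusted p up to 0.116, with values of -2.96 to -2.21 over all sums left out). It was also lost when the wells of plate columns 1 and 2 were left out (adjusted p = 0.0547), when those columns were used as deposited (0.166), and in a fit of only the groups compared (0.119).

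Ftl1 and Slc11a1 had differences of 1.07 ± 0.27 and 1.03 ± 0.30 between hippocampus and cerebellum that did not pass (adjusted p = 0.114 and 0.213). Between hippocampus and cortex 0 of 8 members passed, where 0.0461% of all genes did. There 2 of 8 members and 1976 of 17358 genes had an unadjusted edgeR p below 0.05. DESeq2 passed 1 of 8, where it passed 470 of 38310 genes, and limma voom passed 0. Fth1 (0.67 ± 0.19, adjusted p = 0.247) and Slc40a1 (-1.17 ± 0.46, adjusted p = 0.303) had the same signs as above. Between cortex and cerebellum 0 of 8 passed, where 0.0807% of all genes did. Here 4 of 8 members and 1709 of 17358 genes had an unadjusted edgeR p below 0.05. DESeq2 passed 2 of 8, where it passed 393 of 38310 genes, and limma voom passed 0. The effect in cortex was therefore not shown to differ from that in either other region.

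The regions were also compared within each genotype. In WT, microglia of the cerebellum had more ferritin heavy chain and less ferroportin message than those of the hippocampus. Slc40a1 was 2.82-fold higher in hippocampus than in cerebellum (log2 1.496 ± 0.318, adjusted p = 0.0360), and Fth1 was 1.58-fold lower (-0.66 ± 0.13, adjusted p = 0.0191). The per-mouse values, given above, did not overlap for either gene. They were the 2 of 8 members that passed, beside 0.374% of all genes.

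Both calls lay near the threshold. That of Slc40a1 was lost without WT cerebellum mouse 1, 2 or 3 or WT hippocampus mouse 1, 2 or 4 (adjusted p up to 0.114, with values of 1.27 to 2.02 over all sums left out), and it had an adjusted p of 0.0853 at 1.38 without the wells that carried markers of other cell types. The same call was lost with only the groups compared (adjusted p = 0.323), plate columns 1 and 2 left out (0.0753) and columns as deposited (0.128). The Fth1 call was lost without WT cerebellum mouse 2 or 3 or WT hippocampus mouse 1 or 2 (adjusted p up to 0.0947, values of -0.73 to -0.57). It was also lost in limma voom (adjusted p = 0.174), in averages of log levels over cells (-0.45, adjusted p = 0.592), with only the groups compared (0.140), with the replicate block (0.0704) and with plate columns 1 and 2 left out (0.0771). The 2 WT regions were on different plates.

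WT cortex and cerebellum showed the same ordering, with 0 of 8 members past the threshold beside 0.277% of all genes. There 5 of 8 members and 2081 of 17358 genes had an unadjusted edgeR p below 0.05. DESeq2 passed 4 members, where it passed 602 of 38310 genes, and limma voom passed 0. The cerebellum was lower in Slc40a1 (-1.39 ± 0.32, adjusted p = 0.0679) and higher in Slc11a1 (0.84 ± 0.20, adjusted p = 0.0789), Fth1 (0.54 ± 0.13, adjusted p = 0.0943) and Ftl1 (0.57 ± 0.18, adjusted p = 0.251) in the fit. WT hippocampus and WT cortex, which shared a plate, overlapped for all 8 members, and Slc11a2 was farthest apart (a log2 fold change of -0.955 ± 0.681, adjusted p = 0.718). In that comparison 0% of all genes and 0 of 8 members passed in edgeR. An unadjusted edgeR p below 0.05 was found for 0 of 8 members and 1827 of 17358 genes. DESeq2 and limma voom passed 0 members.

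In 5xFAD the order of hippocampus and cerebellum was the other way round for Fth1. It was 1.74-fold higher in hippocampus (log2 0.80 ± 0.15, adjusted p = 0.0184), on 1 plate, with 2459, 2612 and 1818 against 1350, 1390 and 1222 CPM. This was 1 of 8 members, beside 0.219% of all genes. The call was lost without 5xFAD cerebellum mouse 1, 2 or 3 or 5xFAD hippocampus mouse 1 or 2 (adjusted p up to 0.186, values of 0.69 to 0.94), with the summed columns used as deposited (adjusted p = 0.780), in averages of log levels over cells (0.21, adjusted p = 0.961), with only the groups compared (0.277) and with the replicate block (0.0781). Slc40a1 (-0.94 ± 0.36), Ftl1 (0.53 ± 0.21) and Trf (0.49 ± 0.18) did not overlap between these groups and had an adjusted p of 0.626 each. Tfrc did not overlap either (1.61 ± 1.46, adjusted p = 0.886). The share of all genes whose mice do not overlap is not given here, for this or the other comparisons.

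Against cortex, 5xFAD hippocampus had 0 of 8 members past the threshold, beside 0.0346% of all genes. An unadjusted edgeR p below 0.05 was found for 2 of 8 members and 1444 of 17358 genes. DESeq2 and limma voom each passed 1 member, where they passed 282 of 38310 and 38 of 17358 genes. Slc40a1 was 2.09-fold lower in hippocampus without passing (-1.06 ± 0.35, adjusted p = 0.594). 5xFAD cerebellum against cortex gave 0 of 8, beside 0.0576% of all genes. There 0 of 8 members and 1422 of 17358 genes had an unadjusted edgeR p below 0.05, and 0 members passed in DESeq2 or limma voom. Ordered by mean level, Slc40a1 ran from WT hippocampus (457 ± 87.7 CPM, SD, n = 4) and WT cortex (423 ± 118) through 5xFAD cortex (296 ± 41.7) and 5xFAD cerebellum (272 ± 53.0, n = 3) to WT cerebellum (162 ± 107) and 5xFAD hippocampus (142 ± 19.8, n = 3). All neighbours in this order had overlapping mice.

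Fth1 ran from 5xFAD hippocampus (2296 ± 421 CPM, SD, n = 3) through 5xFAD cortex (1567 ± 69.2, n = 4), WT cerebellum (1517 ± 222, n = 4) and 5xFAD cerebellum (1321 ± 87.7, n = 3) to WT cortex (1045 ± 136, n = 4) and WT hippocampus (961 ± 122, n = 4). 5xFAD hippocampus did not overlap with its neighbour, nor 5xFAD cerebellum with WT cortex, while the other neighbours did. The read ratio of Fth1 to Slc40a1 within a mouse had a median of 2.08 in WT hippocampus (1.64 to 2.94) and of 16.4 in 5xFAD hippocampus (15.1 to 17). WT cerebellum had a median ratio of 13.3 with a wide range, 4.52 to 18.3.

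At the level of single cells the members fell into 2 kinds. Fth1, Ftl1 and Trf had a read in 87.0% to 99.5% of cells of every group, while the others were found in a part of the cells. Slc40a1 had a read in 57.1% of WT hippocampus cells (104 of 182, exact binomial 95% interval 49.6% to 64.4%) and in 27.3% of 5xFAD hippocampus cells (42 of 154, 20.4% to 35%). The mice had 63.0%, 48.9%, 55.3% and 61.4% in WT and 34.0%, 29.3% and 17.4% in 5xFAD, with no overlap. Reads of 1 molecule are copies of each other, so these intervals cover counting error only.

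Both the share of positive cells and the level within them were lower in 5xFAD hippocampus. Among cells with a Slc40a1 read, the median level was 682 CPM in WT hippocampus (mouse medians 631 to 951) and 319 CPM in 5xFAD hippocampus (153 to 501). In 5xFAD hippocampus mouse 3 a single cell held 67.2% of the Slc40a1 reads. WT cerebellum had a read in 25.3% of cells with a median of 577 CPM in those, close to the 670 CPM of WT cortex, where 51.5% of cells had a read. With cells thinned to 50000 reads the shares were 54.8% and 25.9% in WT and 5xFAD hippocampus, and the 12 blank wells had 0 reads of Slc40a1.

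**Figure D3:**
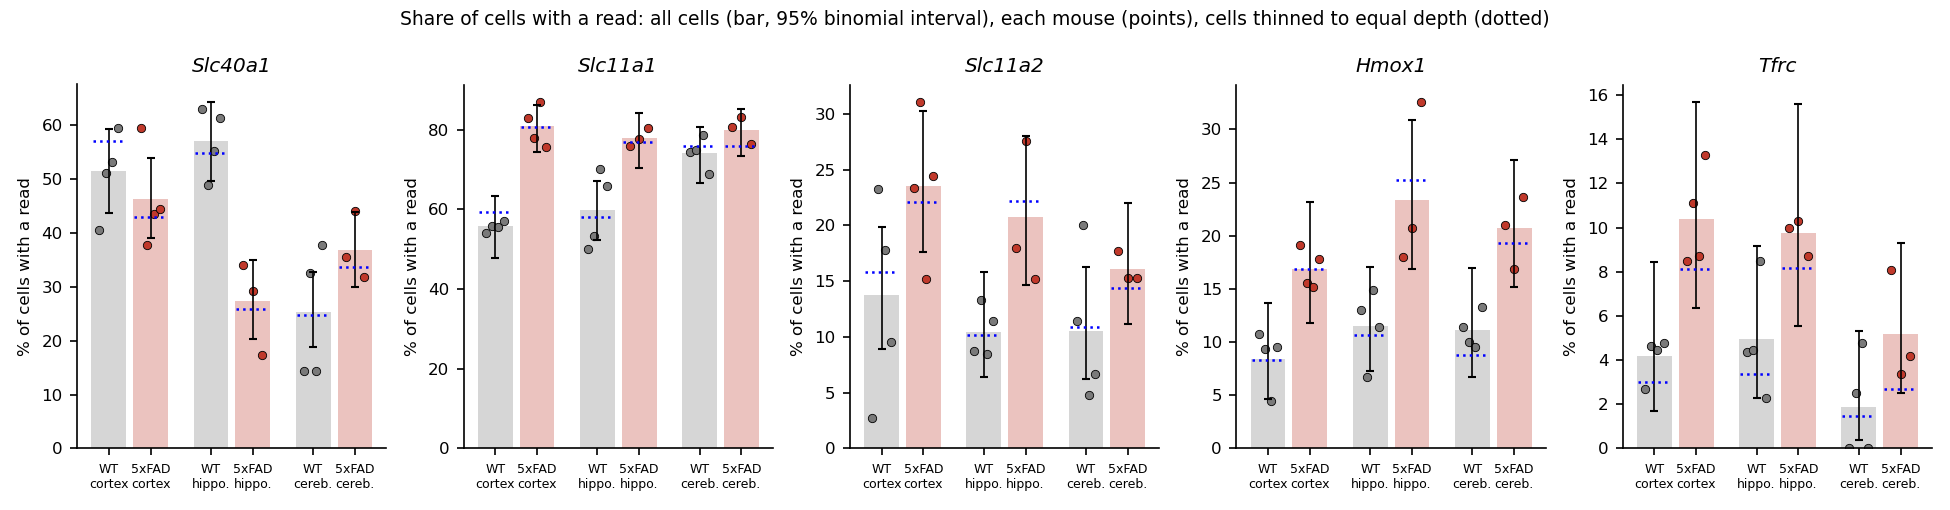
Percentage of cells with at least 1 read (y axis, linear, from 0) of the 5 genes found in only part of the cells, by genotype and region; bars are all cells of a group with their 95% binomial interval, points are mice and dotted lines are cells thinned to equal depth. Slc40a1 falls to 27.3% in 5xFAD hippocampus. Slc11a1, Slc11a2, Hmox1 and Tfrc have a higher bar in 5xFAD than in WT in every region, and in some of these pairs the mice overlap.

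Slc11a1 was read in 55.7% of WT cortex cells and 80.9% of 5xFAD cortex cells, and in 59.9% and 77.9% of hippocampus cells. The mice did not overlap in either region (54.1% to 57.1% against 75.6% to 87.0% in cortex, 50% to 70.2% against 76.0% to 80.4% in hippocampus). In cerebellum WT already had 74.1% and 5xFAD 79.8%. Thinned to equal depth, cortex kept 59.4% against 80.8% and hippocampus 58.2% against 77.0%.

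Hmox1 was read in 8.38%, 11.5% and 11.1% of WT cells of cortex, hippocampus and cerebellum, and in 16.9%, 23.4% and 20.7% of 5xFAD cells. In all 3 regions every 5xFAD mouse had a larger share than every WT mouse, the closest being 14.9% against 18% in hippocampus. Within the cells that had a read, the median level was 366 CPM in WT cortex against 282 CPM in 5xFAD cortex, and 193 against 179 CPM in hippocampus. A blank well also had 1 read of Hmox1, the single member read found in the 12 blanks.

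Slc11a2 had a read in 10.4% to 13.8% of WT cells and 16.1% to 23.5% of 5xFAD cells, and Tfrc in 1.85% to 4.95% and 5.18% to 10.4%. In cells thinned to equal depth the ranges over regions met. Tfrc had 1.46% to 3.39% of WT and 2.67% to 8.15% of 5xFAD cells, and Slc11a2 10.2% to 15.8% and 14.4% to 22.2%. Within each region the thinned 5xFAD share was still higher. For Slc11a2 it was 22.1%, 22.2% and 14.4% against 15.8%, 10.2% and 10.9% in cortex, hippocampus and cerebellum. For Tfrc it was 8.14%, 8.15% and 2.67% against 3.01%, 3.39% and 1.46%. Thinned mice overlapped between genotypes in cerebellum for both genes and in cortex for Slc11a2. No test was run on these shares. Few cells carried the sums of these genes. The cell with the most reads held a median of 80.3% of the Tfrc reads of a sum, and 39.1% and 39.2% of those of Hmox1 and Slc11a2, against 8.79% for Fth1 and 14.9% for Slc40a1.

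Fth1 varied between cells of a group as well. The middle 50% of cells lay between 521 and 1400 CPM in WT hippocampus and between 810 and 2300 CPM in 5xFAD hippocampus, and the highest cell of all, in 5xFAD cerebellum, had 22300 CPM. Across cells, Spearman's rho between Fth1 and Ftl1 was 0.17 in WT cortex, 0.28 in WT hippocampus and 0.40 in WT cerebellum, over 167, 182 and 162 cells. In 5xFAD it was 0.38 in cortex, 0.71 in hippocampus and 0.47 in cerebellum, over 183, 154 and 193 cells. Both values come from the same cell's library and share its depth. Between Slc40a1 and Fth1 rho lay between -0.11 and 0.12 in all 6 groups.

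To see where in the 5xFAD tissue the members were high, cells were split by 8 genes known from plaque-associated microglia (Cst7, Lpl, Clec7a, Itgax, Axl, Igf1, Ch25h and Spp1), none of them a member. Cells with a read in 4 or more made up 21.3%, 47.4% and 14% of 5xFAD cells in cortex, hippocampus and cerebellum, and 0.599%, 0% and 1.23% in WT. Fth1 was higher in these activated cells than in cells with a read in at most 1 of the genes in all 10 sums, by 2.14-fold to 3.47-fold. In hippocampus the activated cells of the 3 mice had 2722, 3121 and 2136 CPM and the others 972, 936 and 998 CPM. In the cerebellum, where no genotype difference passed, the activated cells still had 2167, 2717 and 2501 CPM against 751, 978 and 1004 CPM. These values rest on 14, 5 and 8 activated cells, and 3 of the 5 in mouse 2 carried border macrophage markers.

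The other members split in their own ways. Ftl1 and Slc11a1 were higher in the activated cells in all 10 sums (Ftl1 by 1.52-fold to 4.17-fold, Slc11a1 by 1.18-fold to 8.27-fold). Slc40a1 was lower in 9 of 10. The Slc40a1 level was 1.17 to 162 CPM in activated cells and 317 to 372 CPM in the others of cortex, and 12.7 to 104 against 323 to 423 CPM in cerebellum. In hippocampus mouse 1 had 159 CPM in activated and 144 CPM in the other cells, and mice 2 and 3 had 78.3 against 392.4 and 48.7 against 253 CPM.

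Cells with at most 1 of the genes can be set beside the same class of cells in WT mice, both in plain CPM. In 5xFAD hippocampus they had 936 to 998 CPM of Fth1, inside the 797 to 1064 CPM of WT hippocampus. Their Ftl1 was 74.3 to 93.6 CPM, where WT had 90.4 to 97.7 CPM. In 5xFAD cortex they had 970 to 1285 CPM of Fth1, overlapping with the 931 to 1164 CPM of WT cortex. Their Ftl1 of 105 to 142 CPM was above the highest WT mouse at 102 CPM. Slc40a1 did not follow. In these cells of 5xFAD hippocampus it was at 144, 392.4 and 253 CPM, below the WT range of 371 to 564 CPM in 2 of 3 mice. Cerebellum differed from the other regions in Fth1 and Ftl1. There these cells had 751 to 1004 CPM of Fth1 in 5xFAD, below the 1257 to 1528 CPM of WT. Their Ftl1 was 105 to 121 CPM in 5xFAD, below the 124 to 151 CPM of WT. The split is a description without a test. Cells with 3 and with exactly 4 of the genes, just outside and just inside the limit, numbered 19 and 14 in hippocampus. Of the 27 activated cells of cerebellum 4 carried border macrophage markers, and 0 of 39 and 0 of 73 in cortex and hippocampus did. All wells with markers of any other cell type were then left out. The activated cells of the 3 cerebellum mice had 2167, 1597 and 2514 CPM of Fth1, and the others 742, 955 and 1099 CPM. In mouse 2 this removed 3 of the 5 activated cells. Median depth was 356501 reads in the activated and 270394 in the other cells of hippocampus, and the part of depth in these differences was not tested.

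**Figure D4:**
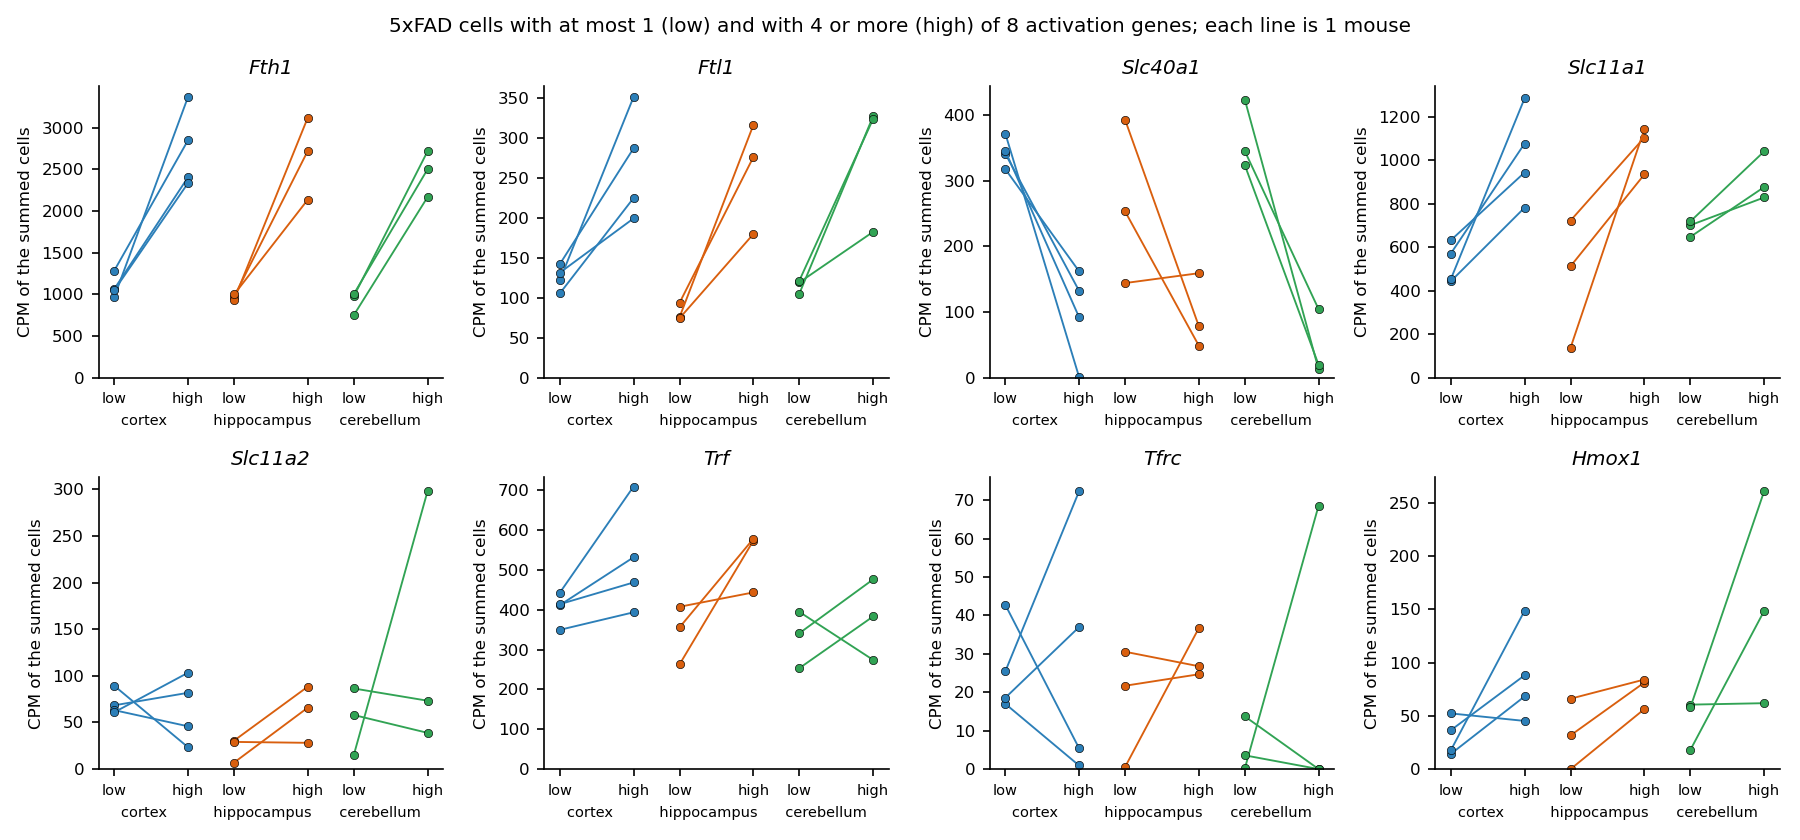
Level in CPM (y axis, linear, from 0) of each gene in the summed 5xFAD cells with at most 1 (low) and with 4 or more (high) of 8 activation genes; each line joins the 2 values of 1 mouse in 1 region. Fth1, Ftl1 and Slc11a1 rise from low to high in all 10 lines, and Slc40a1 falls in 9 of 10.

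The wells with border macrophage markers had other levels of several members, described here without a test. These macrophages carry CD206, one of the sort's stains. The 28 wells had 0.252 CPM of Slc40a1, where the wells without other markers had 291 CPM. Fth1 was at 2744 against 1427 CPM, Ftl1 at 311 against 143 CPM and Hmox1 at 184 against 52.9 CPM. Slc11a1 was at 698 against 677 CPM. Tfrc had 0 reads in them. They held 15.2% and 13.2% of the Fth1 reads and 27.6% and 17.5% of the Hmox1 reads of WT and 5xFAD cerebellum. Their 9 markers summed to 8.41 to 677 CPM in WT cerebellum mice (0 of 9 markers at 0), 272 to 540 CPM in 5xFAD cerebellum (1 of 9 at 0) and at most 318 CPM elsewhere (1 to 3 of 9 at 0). With all 44 wells left out the hippocampal genotype differences were 1.28 for Fth1, 1.17 for Ftl1, 1.06 for Slc11a1 and -1.69 for Slc40a1, and each passed.

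Over the 22 sums, the genes whose log2 CPM followed Slc40a1 most closely were Fam110a (Pearson's r 0.89), Pop4 (0.82), Cyth4 (0.82), the microglial ADP receptor P2ry12 (0.79) and Pde2a (0.77), among 6311 genes compared. Fth1 was followed by the elongation factor Eef1a1 (0.95), the MHC light chain B2m (0.94), Cd52 (0.93), Ftl1 (0.91) and Rack1 (0.90). Ftl1 was followed by Rack1 (0.94), Eef1a1 (0.94), the elongation factor Eef2 (0.91), Fth1 (0.91) and the lysosomal membrane gene Cd63 (0.90). The points are sums of different mice and regions and share group differences, plate and depth.

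Beyond the 8 members, 63 genes of iron and haem handling in 7 lists were looked up, and 47 of them passed the filter on low counts. In the genotype comparisons 1 of the 47 passed, 1 of 11 tested genes of haem uptake, transport and breakdown, and it was in cortex: Lrp1, a scavenger receptor that takes up the haem carrier hemopexin, was higher in 5xFAD cortex (417 CPM mean in WT, 744 CPM in 5xFAD; log2 0.83 ± 0.15, adjusted p = 0.0102). It did not pass in hippocampus (0.44 ± 0.16, adjusted p = 0.297) or cerebellum (-0.25 ± 0.16, adjusted p = 0.705). None of the 6 tested genes of iron entry and reduction, 2 of iron exit and oxidation, 3 of storage and chaperones, 7 of sensing and its control, 9 of mitochondrial iron and iron-sulphur assembly and 9 Nrf2 and Bach1 targets passed in any genotype comparison, nor did the other 10 of the 11 haem genes. In the other comparisons none of the 47 passed.

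Hmox2, the constitutive haem oxygenase, had group means of 124 to 170 CPM, and the ferritin receptor for autophagy, Ncoa4, 9.46 to 12.6 CPM. The ferroxidases Heph and Cp, partners of ferroportin, had at most 2.67 and 23.8 CPM. The hormone gene Hamp, whose peptide removes ferroportin from the membrane, had at most 0.102 CPM. The siderophore-binding and iron-binding genes of neutrophils, Lcn2 and Ltf, averaged 574 and 1040 CPM in 5xFAD cerebellum and at most 0.180 CPM elsewhere, and neutrophil markers there reached 15300 CPM in 1 mouse against 470 and 633 CPM in the others.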

How the data were processed

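Single microglia were sequenced with Smart-seq2, and the authors deposited whole-number read counts per gene and well, made with STAR 2.5.2b and featureCounts 1.5.1 on GRCm38, per the submitters' processing notes; the sources used here give neither the annotation nor the treatment of multi-mapping reads. In the deposited count table, 96 columns held the sum of several wells: that of well 1 also held wells 10 to 19 of its row, and that of well 2 held 20 to 24. The wells were recovered by subtraction, which gave 0 negatives in 4664352 values. Of 1140 cells, 1041 with at least 500 genes, at least 10000 reads and at most 20% mitochondrial reads were kept, and the 92 spike-in rows were left out. Raw counts were summed per mouse and region (22 sums, the level in CPM of which is printed with its SD over mice) and tested with edgeR 4.0.16 (TMM, filterByExpr, quasi-likelihood test, 1 term per group, R 4.3.3), with p-values adjusted by Benjamini-Hochberg over 17358 genes and a threshold of 0.05. The SE is the log2 fold change divided by the root of F. The script was tested on simulated data. Alternatives were DESeq2 1.42.0, limma 3.58.1 (voom, and averages of log levels over cells), other filters, groups, column and cell choices, cells thinned to 50000 reads, a replicate block and leaving out each sum. Same-numbered sums of 1 genotype did not deviate together (r of -0.04 to 0.03 over 21 pairs, 0 above 0.1). Whether mice of 1 group were raised or processed apart is not given, so p-values measure the spread between these sums. Elements were searched in GENCODE vM21 transcripts. The members and gene lists were chosen with earlier results of these data known. Named were all 8 members, list genes past the threshold in a genotype comparison (at most 4 a list), and the 5 genes most correlated with Slc40a1, Fth1 and Ftl1 (mean log2 CPM of at least 4, without predicted, ribosomal protein and mitochondrial genes); the other genes named at the end were chosen after their values were seen.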

Additional observations from a re-analysis of the deposited data

Results flagged for a closer look

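In groups of 4 mice, 64 sets of member values were examined with Dixon's test for a mouse far from the rest, and 9 had one. The limit used is passed by about 1 in 20 sets of normally distributed values. Percentages of cells are bounded and move in steps of whole cells, so the 9 cannot be set against that rate. For levels these were Hmox1 in WT hippocampus (lowest mouse, 16.14 CPM), WT cerebellum (highest, 205.5 CPM) and 5xFAD cortex (lowest, 43.45 CPM), Tfrc in WT cerebellum (highest, 17.66 CPM) and Slc11a1 in WT cortex (lowest, 233.9 CPM). For the percentage of cells with a read they were Fth1 in 5xFAD cortex (97.9%), Tfrc in WT cortex (2.7%), Trf in WT hippocampus (85.1%) and Trf in 5xFAD cortex (95.7%), each the lowest of its group. The genotype effects on Fth1 and Slc40a1 differed between hippocampus and cerebellum, by 1.456 (edgeR adjusted p = 0.000604) and -2.439 (adjusted p = 0.029) on the log2 scale. The WT groups of these regions lay on different plates, so plate enters both terms.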

How the results depend on the processing

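The number of the 8 members past the threshold moved with the processing, and the cause was not tested. For 5xFAD against WT, cortex (0 passing) gave 2 with DESeq2, limma on cell means, no filter, the stricter cell filter, thinned cells and marker wells left out, 1 with the stricter count filter and 3 with columns as deposited; hippocampus (5) gave 2 with limma on cell means and 3 with no filter. For WT cerebellum against cortex (0), DESeq2 gave 4, cell means 2, no filter 3, the stricter count filter 1, the replicate block 1, columns as deposited 2, the stricter cell filter 1 and thinned cells 3. For WT hippocampus against cerebellum (2), DESeq2 gave 4, voom 1, a fit of only the groups compared 0, the replicate block 1, plate columns 1 and 2 left out 0, columns as deposited 1 and marker wells left out 1. In 5xFAD, hippocampus against cortex (0) gave 1 with DESeq2, voom and cell means, and hippocampus against cerebellum (1) gave 2 with voom and 0 with cell means, only the groups compared, the replicate block and columns as deposited. Of the genotype differences, hippocampus against cortex (0) gave 1 with DESeq2 and cell means, hippocampus against cerebellum (2) gave 1 with cell means, only the groups compared, plate columns 1 and 2 left out and columns as deposited, and cortex against cerebellum (0) gave 2 with DESeq2 and 1 with no filter and the stricter cell filter. With the replicate block the Fth1 calls between hippocampus and cerebellum had an adjusted p of 0.0704 in WT and 0.0781 in 5xFAD. The block changed no other member call but 1 between WT cerebellum and cortex; mice are nested in genotype, so it could not be set for 5xFAD against WT.

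Leaving out each sum gave 0 to 2 members in cortex, 2 to 5 in hippocampus and 0 to 1 in cerebellum for 5xFAD against WT, 0 to 1 for WT cerebellum against cortex, 0 to 3 for WT hippocampus against cerebellum, 0 to 1 for 5xFAD hippocampus against cerebellum and 1 to 3 for the genotype difference between those regions. Of the member values recomputed, signs turned only in the cerebellar genotype comparison, where no main value passed: Fth1 (-0.199) was 0.21 on cell means; Ftl1 (0.057) was -0.028 with plate columns 1 and 2 left out and -0.03 to 0.138 without 1 sum; Hmox1 (-0.173) was 0.551 with voom, 0.754 on cell means, 1.195 with plate columns left out, 0.67 as deposited, 1.291 with the stricter cell filter and -0.479 to 0.99 without 1 sum; Slc11a1 (0.055) was -0.025 in thinned cells and -0.028 to 0.211 without 1 sum; Slc11a2 (0.065) was -0.028 as deposited, -0.015 without marker wells and -0.33 to 1.268 without 1 sum.

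Over all genes the calls ranged over the alternatives from 25 to 550 in cortex (51 as reported), 128 to 858 in hippocampus (176) and 0 to 391 in cerebellum (8) for 5xFAD against WT. Within WT they ranged from 0 to 384 for hippocampus against cortex (0), 13 to 602 for cerebellum against cortex (48) and 13 to 797 for hippocampus against cerebellum (65). Within 5xFAD the ranges were 0 to 282 (6), 1 to 318 (10) and 0 to 394 (38) in the same order. For the genotype differences they were 0 to 470 for hippocampus against cortex (8), 18 to 622 for hippocampus against cerebellum (52) and 3 to 393 for cortex against cerebellum (14). Sums of Tfrc, Hmox1 and Slc11a2 rest on few cells. At a fixed depth per cell the Tfrc and Slc11a2 shares, taken over all regions, overlapped between WT and 5xFAD groups. Within each region the 5xFAD share was still higher.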
